A study of Mus musculus with 17 samples.

Results

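The mitochondrial carrier family comprises transporters that mostly sit in the inner mitochondrial membrane and exchange nucleotides, phosphate, organic acids, amino acids, acylcarnitines, iron and cofactors between cytosol and matrix. Its members were taken as every row of the raw count table whose gene symbol is Slc25a followed by a number, which gave 47 of 23719 rows. Mitochondrial carriers let ATP made in the matrix reach the cytosol in exchange for ADP, and they carry the citrate, malate, aspartate and glutamate of the shuttles that link both compartments. In the colon wall, epithelial cells, smooth muscle and enteric neurons all hold these transporters, and several carriers exist as related genes that are used to different degrees in different tissues. Uncoupling proteins and MTCH proteins belong to the same family but carry other symbols, so they were followed as partner genes.

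The data are RNA sequencing counts of 17 colon tissue samples from male C57BL/6 mice aged 32 to 34 weeks, each sample taken as a separate mouse. The GWI group, a mouse model of Gulf War illness, had 8 mice that drank water with 2 mg/kg pyridostigmine bromide (PB) over 7 days, and the Control group had 9 mice given water without it. PB blocks acetylcholinesterase reversibly. Mice were kept until day 30, with the recovery after PB given as 21 days. The comparison of GWI with Control asks which carrier transcripts differed after recovery from a past exposure, so it describes the state after withdrawal and not the exposure itself. Total counts were 16744096 to 20741212 in Control mice (median 17761682) and 16293537 to 18389686 in GWI mice (median 17428512). The 47 members together took 0.303% to 0.429% of the counts in Control mice (median 0.386%) and 0.391% to 0.441% in GWI mice (median 0.419%), and the lowest share was that of Control 9.

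Before the family is described, a few libraries need mention. Control 6 and Control 7 had the highest mean of the small intestine markers (7.14 and 8.13 on the log2 CPM scale, against 3.92 to 5.33 in the other mice), where CPM are counts scaled to the library size with TMM factors. In Control 9, the 10 most abundant genes took 23.1% of the counts, against 9.72% to 17.3% in the other mice. Markers of smooth muscle moved with the groups. All 10 genes of the smooth muscle list had lower fitted values in GWI colons and 7 of 10 passed the test (median log2 fold change -0.91). Their summed CPM was 3690 to 23920 in Control mice (median 11580) and 3658 to 11830 in GWI mice (median 5142), and the most abundant gene was Myh11 (median 2700 CPM in Control, 1205 CPM in GWI). Of 12 colon epithelium markers, 4 were higher and 0 lower in GWI colons. Their summed CPM was 19390 to 40230 in Control mice (median 27560) and 21780 to 40530 in GWI mice (median 29410), with Car1 the most abundant gene. Among 7 enteric glia markers 3 were lower, with summed CPM of 41.4 to 143 in Control mice and 34.2 to 81.7 in GWI mice and Gfap as the most abundant gene. All 10 enteric neuron markers had negative fold changes (median -0.58), of which the edgeR test and DESeq2 called 0, 0 had an unadjusted p under 0.05 and limma-voom called 9. Their summed CPM was 84.2 to 619 in Control mice and 113 to 408 in GWI mice, with Uchl1 as the most abundant gene. All 7 macrophage markers had negative values and 1 was lower, with summed CPM of 31.0 to 72.0 in Control mice and 27.7 to 45.4 in GWI mice and C1qa as the most abundant gene. All 7 adipocyte markers had positive values and 1 was higher, with summed CPM of 54.4 to 238 in Control mice and 80.5 to 674 in GWI mice and Fabp4 as the most abundant gene. None of the markers of these lists was at 0 throughout. Of 13 small intestine markers 8 could be tested, of which 1 was higher and 3 were lower; their summed CPM was 964 to 2992 in Control mice and 1100 to 1798 in GWI mice, Fabp2 was the most abundant gene, and Lct, which defines absorptive cells of the small intestine, had at most 10 counts in any mouse. The clock genes also moved, with 3 of 14 higher and 7 of 14 lower, a summed CPM of 565 to 882 in Control mice and 525 to 755 in GWI mice, and Nr1d2 as the most abundant gene. Counts given for these lists are edgeR calls unless another test is named. Limma-voom called 10 smooth muscle, 9 colon epithelium, 5 enteric glia and 5 macrophage markers. It called 1 adipocyte marker, 1 small intestine marker and 11 clock genes. Other than where a fit with a marker score is given, the part of these genes in the results on the carriers was not tested. In bulk tissue, fewer cells of a type and less RNA per cell cannot be told apart.

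Between genes, levels were compared as CPM per kilobase of exon. Slc25a5, which encodes the widely used ADP/ATP carrier ANT2, was the most abundant member, with a median level of 554 CPM per kb in Control colons and 605 in GWI colons, and it took 35.6% to 47.0% of the summed level of the family in Control mice. The phosphate carrier Slc25a3 followed at 130 CPM per kb in Control and 128 in GWI. The ATP-Mg/phosphate carrier Slc25a24 (92.8 CPM per kb in Control), the ADP/ATP carrier Slc25a4 (78.5) and the dicarboxylate carrier Slc25a10 (77.9) came next in median level. Across Control mice, the share of Slc25a24 in the family's summed level was 6.01% to 11.6%, that of Slc25a4 was 3.68% to 9.71% and that of Slc25a10 was 3.14% to 7.06%, so the order of these neighbours lay within their spread. The 5 members highest in controls held 68.3% to 73.1% of the summed level in Control mice and 64.7% to 69.9% in GWI mice. At the other end, Slc25a30, a relative of the uncoupling proteins, was the lowest of the tested members at 0.352 CPM per kb in Control.

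Of the 47 members, 40 passed the filter on low counts, and a member was called when the edgeR quasi-likelihood test gave a Benjamini-Hochberg adjusted p-value under 0.05 over all 14146 tested genes. Called were 10 of 40 members (25.0%), against 26.8% of all tested genes, so the share of called carriers was near the background and is not a result about the family. By direction, 9 members (22.5%) were higher in GWI colons, where 13.4% of all tested genes were, and 1 member (2.5%) was lower, where 13.5% of all tested genes were. That split of all genes depends on scaling. It was 1889 genes higher and 1903 lower with TMM factors and 1214 higher and 2992 lower with upper-quartile factors, under which 6 members were called higher and 1 lower. The median log2 fold change of the tested members was 0.10 and 26 of 40 (65.0%) had a positive value, beside -0.06 and 44.8% over all tested genes. With upper-quartile factors the members' median was 0.00. An absolute log2 fold change over 1 with an unadjusted p under 0.05 was seen in 1 member, Slc25a4, and in 2.42% of all genes. In 1 member, Slc25a44, every GWI mouse was above every Control mouse, as in 1.83% of all genes, and in 0 members was every GWI mouse below every Control mouse, as in 0.523% of all genes. The 30 uncalled members had log2 fold changes from -0.64 (Slc25a48, which was -0.24 without Control 7) to 0.32 (Slc25a34). Limma-voom with sample weights called 13 members higher and 5 lower, beside 3901 and 4175 of all 14146 tested genes. Its calls of single members below stand beside that share.

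**Figure D1:**
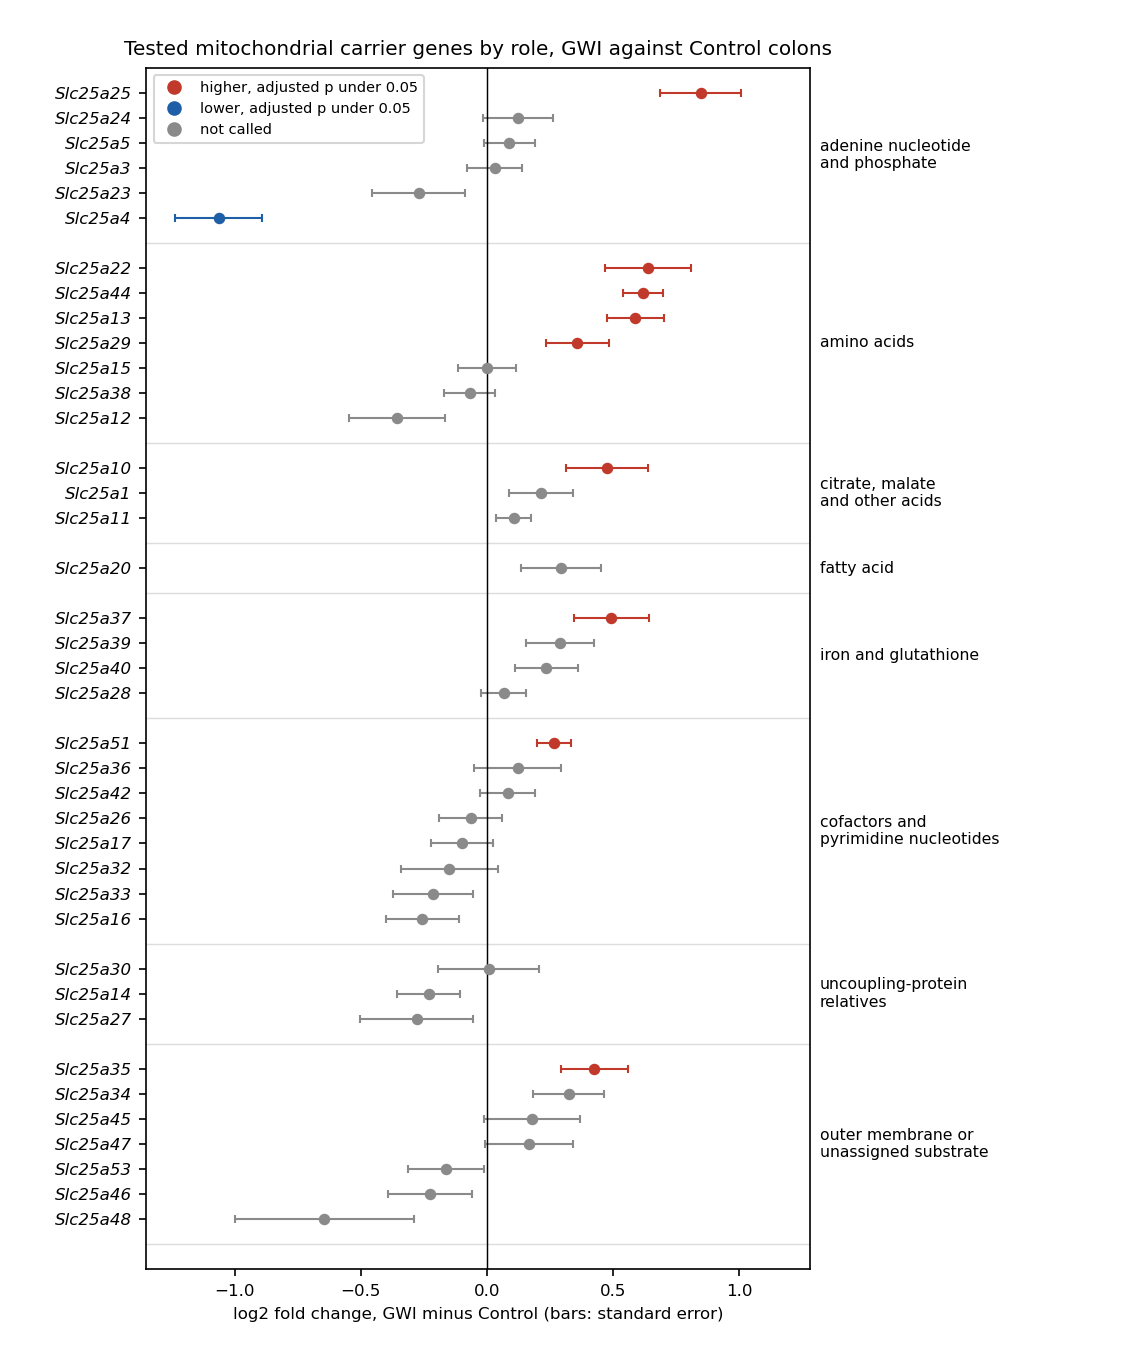
Log2 fold change of the tested members named in the text, GWI minus Control, grouped by what the carrier transports. Points are the edgeR estimates, bars are standard errors, and colours mark members with an adjusted p-value under 0.05, from Slc25a4 at -1.06 to Slc25a25 at 0.85.

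Carriers of adenine nucleotides and phosphate held both the lowest and the highest fold change of the family. Of 9 members in this role 6 were tested, 1 was higher and 1 was lower. Slc25a4 encodes ANT1, the ADP/ATP carrier known from heart and skeletal muscle. Its level was 112 to 273 CPM in Control mice (median 185) and 67.3 to 129 CPM in GWI mice (median 82.0). Control 8 was the lowest control and GWI 5 and GWI 8 were the highest GWI mice, and 6 of 8 GWI mice were below every control. Slc25a4 was lower in GWI colons by a log2 fold change of -1.06 ± 0.17 (SE; edgeR quasi-likelihood test, Benjamini-Hochberg adjusted p = 0.000799), with all 8 GWI mice below the Control median. The mice with little Slc25a4 were mostly those with low smooth muscle markers. Among controls the lowest summed smooth muscle markers were those of Control 9 (3690 CPM), Control 8 (4702 CPM) and Control 7 (6790 CPM), in which Slc25a4 was 149, 112 and 145 CPM. GWI 5 and GWI 8 had the highest summed markers of their group, 11830 and 8419 CPM, and Slc25a4 at 129 and 125 CPM. Controls 2, 3 and 5 had sums near that of GWI 5, at 11580, 11190 and 12210 CPM. Slc25a4 was 183.0, 219.5 and 184.7 CPM in these controls. The other 6 GWI mice, with summed markers of 3658 to 5547 CPM, had Slc25a4 at 67.3 to 90.1 CPM, which is below Control 8 and Control 9. These mice were set side by side after their values were seen. With a score of smooth muscle minus epithelium markers as a covariate, the log2 fold change of Slc25a4 was -0.41 and no longer passed the test (edgeR adjusted p = 0.0670, the highest over 13 alternatives to the test, the scaling, the covariates and the mice used, which ran down to 1.18e-07). That score was -1.57 to 0.76 in Control mice and -2.46 to -0.90 in GWI mice, so it differed between the groups itself.

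Slc25a5, the other ADP/ATP carrier with a measurable level, was at 699 to 1094 CPM in Control mice (median 912) and 765 to 1099 CPM in GWI mice (median 996). The groups overlapped almost fully, and the log2 fold change of 0.09 ± 0.10 (SE) did not pass the test (edgeR adjusted p = 0.519). Within a mouse, the log2 ratio of Slc25a4 to Slc25a5 counts was -2.32 ± 0.54 (SD, n = 9) in Control and -3.47 ± 0.48 (SD, n = 8) in GWI, with 6 of 8 GWI mice below every control. Per length, Slc25a4 made up 7.52% to 21.4% of the pair in Control mice (median 12.5%) and 4.11% to 10.3% in GWI mice (median 5.61%). Ratios of related carriers were compared after the data were seen and were not tested. A processed pseudogene, Slc25a5-ps, resembles Slc25a5, and reads that fit both places equally would be missing from counts of unique hits.

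Slc25a25 encodes a calcium-regulated ATP-Mg/phosphate carrier that adjusts the adenine nucleotide pool of the matrix. Its level was 18.4 to 43.2 CPM in Control mice (median 21.6) and 33.0 to 59.8 CPM in GWI mice (median 42.3). Apart from Control 1 at 43.2 CPM, every control lay below every GWI mouse, and the next control was Control 9 at 26.1 CPM. Slc25a25 was higher in GWI colons by a log2 fold change of 0.85 ± 0.16 (SE; edgeR adjusted p = 0.00188), and all 8 GWI mice were above the Control median. Its exons share 4.82% of their length with the gene Naif1 on the opposite strand, and as the strand setting of the counting is not stated, reads from that stretch cannot be told apart. The call passed in each of 30 alternative fits with all or fewer mice. The related carriers Slc25a24 (log2 fold change 0.12 ± 0.14) and Slc25a23 (-0.27 ± 0.18) and the phosphate carrier Slc25a3 (0.03 ± 0.11) did not pass the test (edgeR adjusted p = 0.520, 0.274 and 0.848, standard errors after ±). Limma-voom called Slc25a23 lower (-0.36, adjusted p = 0.00671, with 0.528 the highest of its alternatives), and with the muscle score as a covariate its sign turned (0.50, edgeR adjusted p = 0.0767). The log2 ratio of Slc25a25 to Slc25a23 counts was -0.96 ± 0.68 (SD, n = 9) in Control and 0.10 ± 0.30 (SD, n = 8) in GWI, and that of Slc25a25 to Slc25a24 was -3.86 ± 0.41 and -3.11 ± 0.44.

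**Figure D2:**
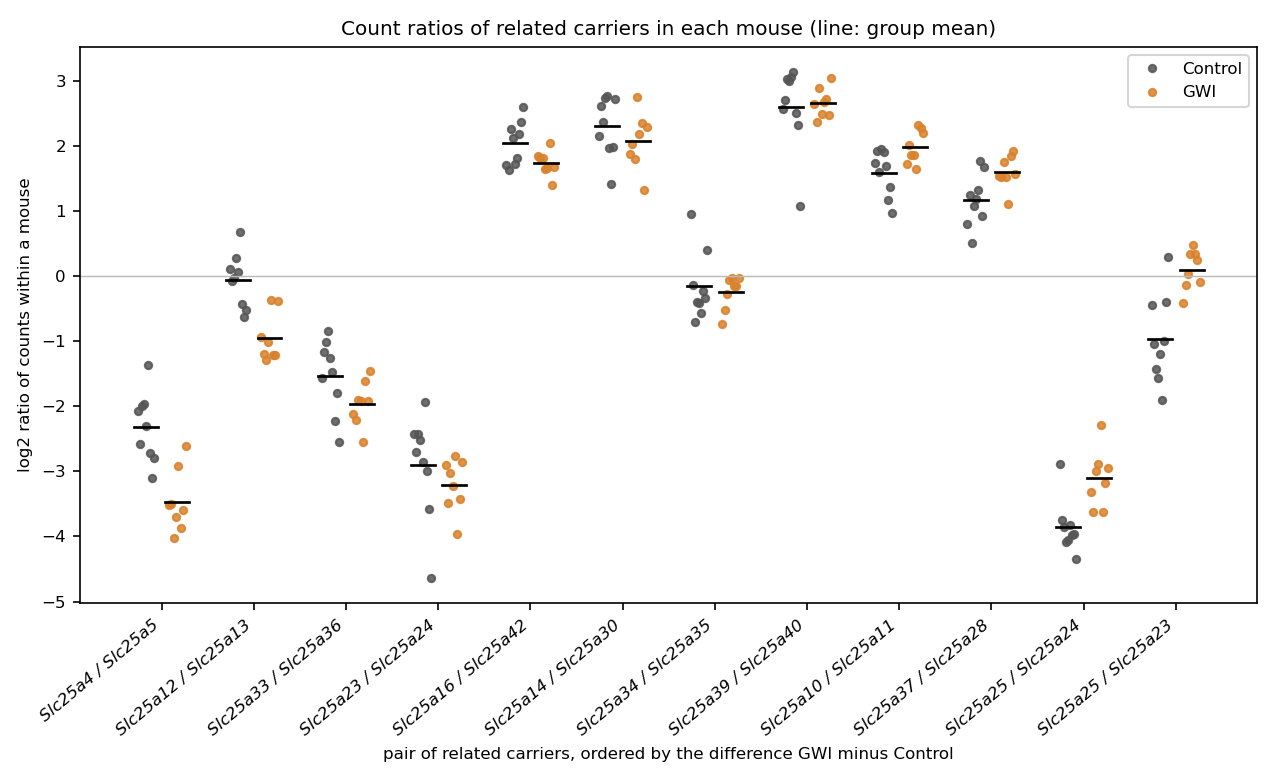
Log2 ratio of the counts of related carriers within each mouse, for 12 pairs ordered by the difference of the group means (GWI minus Control). Points are mice, spread sideways only to be visible, and lines are group means, of which those of Slc25a4 to Slc25a5 (-1.15) and Slc25a25 to Slc25a23 (1.06) differ most, while the groups overlap in every pair.

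Around these carriers, 17 genes were followed that supply or use their substrates: porins of the outer membrane, ATP synthase subunits, creatine kinases, hexokinases and others. Of these, 2 were lower in GWI colons, the ATP synthase subunit genes Atp5j (log2 fold change -0.50 ± 0.16 SE, edgeR adjusted p = 0.0251) and Atp5f1 (-0.37 ± 0.13, adjusted p = 0.0418).

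Among amino acid carriers, 4 of 7 tested members were higher and 0 lower, beside 13.4% and 13.5% of all tested genes, and whether roles differ was not tested. Slc25a44, a carrier of branched-chain amino acids into mitochondria, had the smallest p-value of the family. Its level was 33.5 to 45.6 CPM in Control mice (median 41.5) and 53.5 to 71.3 CPM in GWI mice (median 62.4). The groups did not overlap: the lowest GWI mouse, GWI 5, was above the highest control, Control 2. The log2 fold change was 0.62 ± 0.08 (SE; edgeR quasi-likelihood test, Benjamini-Hochberg adjusted p = 0.000198), and the call passed in each of the 30 alternative fits, over which the log2 fold change was 0.52 to 0.65. The annotation places no other exon over those of Slc25a44.

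Slc25a13 encodes citrin and Slc25a12 encodes aralar, the aspartate/glutamate carriers of the malate-aspartate shuttle, of which citrin is the form best known from liver and aralar that of muscle and brain. The level of Slc25a13 was 25.4 to 48.1 CPM in Control mice (median 33.4) and 38.9 to 59.4 CPM in GWI mice (median 51.4). Only Control 1 and GWI 8 lay in the range of the other group. Slc25a13 was higher in GWI colons (log2 fold change 0.59 ± 0.11 SE, edgeR adjusted p = 0.00217), with all 8 GWI mice above the Control median. Fitted with the smooth muscle minus epithelium score, it had a log2 fold change of 0.47 and missed the threshold (edgeR adjusted p = 0.0738, the highest of its 13 alternatives, which ran down to 1.06e-05). Slc25a12 was at 17.7 to 51.9 CPM in Control mice (median 36.1) and 21.6 to 38.7 CPM in GWI mice (median 25.0). Controls 7, 8 and 9, with the least smooth muscle marker RNA of their group, were its lowest controls at 24.2, 19.9 and 17.7 CPM, and GWI 5 and GWI 8 were its highest GWI mice. Its log2 fold change of -0.36 ± 0.19 (SE) did not pass (edgeR adjusted p = 0.165), limma-voom with sample weights called it lower (-0.55, adjusted p = 0.000462), and with the muscle score as a covariate the sign turned (0.31, edgeR adjusted p = 0.364). The log2 ratio of Slc25a12 to Slc25a13 counts was -0.06 ± 0.41 (SD, n = 9) in Control and -0.95 ± 0.37 (SD, n = 8) in GWI, and 6 of 8 GWI mice were below every control. Per length, Slc25a12 made up 25.1% to 45.2% of the pair in Control mice (median 33.7%) and 17.5% to 28.6% in GWI mice (median 19.4%).

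Slc25a22, a glutamate carrier, was at 14.3 to 41.1 CPM in Control mice (median 24.3) and 26.9 to 47.8 CPM in GWI mice (median 36.7). Control 1 stood above the other controls, of which the next was at 27.7 CPM, and 7 of 9 controls were below every GWI mouse. The log2 fold change was 0.64 ± 0.17 (SE; edgeR adjusted p = 0.0120), and it passed in each of the 30 alternative fits. Slc25a29, a carrier of basic amino acids, was low, with 58 to 151 counts per mouse. It was at 4.04 to 6.38 CPM in Control mice (median 5.24) and 4.98 to 8.10 CPM in GWI mice (median 6.52), and 5 of 8 GWI mice were above every control. Its log2 fold change of 0.36 ± 0.12 (SE; edgeR adjusted p = 0.0410) lay close to the threshold. The call was lost in 18 of 30 alternatives, among them leaving out Control 2, 4, 5 or 7 or GWI 1, 3, 4, 5, 6 or 7, with an edgeR adjusted p of 0.0258 to 0.0882 when each of the 17 mice was left out in turn. The ornithine carrier Slc25a15 (log2 fold change 0.00 ± 0.12 SE) and the glycine carrier Slc25a38 (-0.07 ± 0.10) did not pass the test.

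Of the enzymes that use these substrates, 18 genes of glutamate, proline, urea cycle and branched-chain amino acid metabolism were tested and 0 were called by the edgeR quasi-likelihood test. At an unadjusted p under 0.05 there were 2, DESeq2 called 0 and limma-voom with sample weights called 4. The median log2 fold change of this list was 0.10, and its most abundant gene was Oat.

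**Figure D3:**
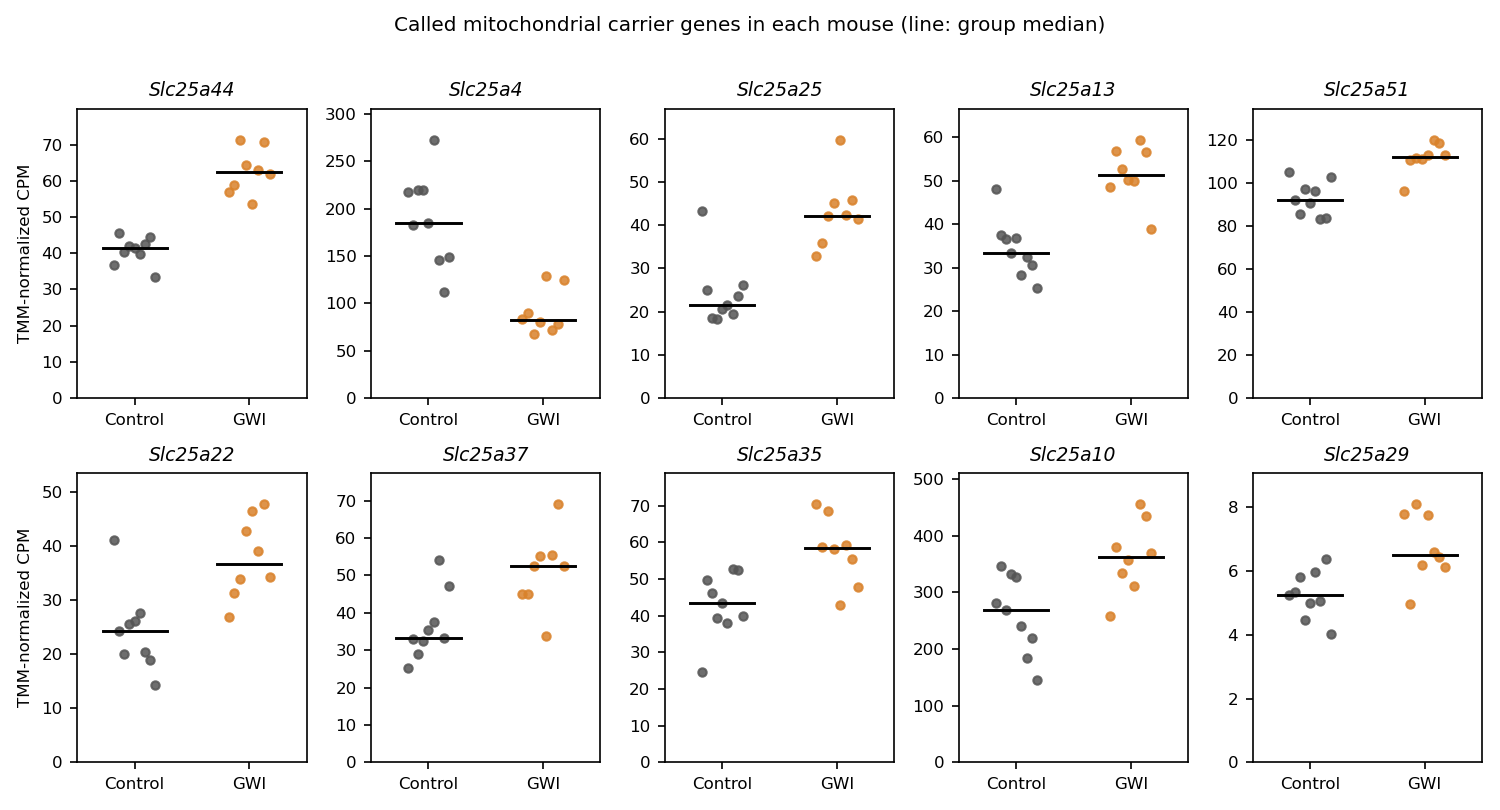
TMM-normalized CPM of the 10 called members in each mouse, with Control and GWI side by side and a line at each group median. Points are mice, spread sideways only to be visible; the groups are separate for Slc25a44 and overlap for the others, and Control 1 is the highest control for Slc25a13, Slc25a22, Slc25a25 and Slc25a51.

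Of the carriers of citrate, malate and related acids, 3 of 4 were tested and 1 was higher. Slc25a10, the dicarboxylate carrier, exchanges malate or succinate for phosphate. It was at 145 to 347 CPM in Control mice (median 269) and 258 to 455 CPM in GWI mice (median 363). Of the GWI mice, 5 of 8 were above every control, and Control 9 was the lowest. The log2 fold change was 0.47 ± 0.16 (SE; edgeR adjusted p = 0.0383), with 7 of 8 GWI mice above the Control median. Like that of Slc25a29, this call was lost in 18 of 30 alternatives, including without Control 3, 6, 7 or 8 or GWI 2, 3, 4, 6, 7 or 8, and the edgeR adjusted p was 0.0256 to 0.0811 when each mouse was left out in turn. An antisense transcript shares 6.6% of its exon length. The citrate carrier Slc25a1 (log2 fold change 0.21 ± 0.13 SE) and the oxoglutarate/malate carrier Slc25a11 (0.11 ± 0.07) did not pass the test (edgeR adjusted p = 0.210 and 0.254), although all alternatives gave them positive values. Among 16 enzymes of the citrate cycle and the malate-aspartate and glycerophosphate shuttles, 3 were higher and 0 lower: the malic enzyme Me2 (log2 fold change 0.43 ± 0.11 SE, edgeR adjusted p = 0.0104), the glycerol-3-phosphate dehydrogenase Gpd1 (0.75 ± 0.20, adjusted p = 0.0121) and the oxoglutarate dehydrogenase subunit Ogdh (0.56 ± 0.20, adjusted p = 0.0444).

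Slc25a20 exchanges acylcarnitines for carnitine and so brings long-chain fatty acids to the matrix. It was at 151 to 355 CPM in Control mice (median 193) and 215 to 317 CPM in GWI mice (median 247). Control 1 was above every GWI mouse, and 6 of 9 controls were below every GWI mouse. The log2 fold change of 0.29 ± 0.16 (SE) did not pass the test (edgeR adjusted p = 0.171), and without Control 1 it was 0.42 and did (edgeR adjusted p = 0.0231, with 0.281 the highest over the mice left out in turn). Limma-voom called it higher with all mice (0.30, adjusted p = 0.0421, with 0.694 the highest of its alternatives). Of 5 tested genes that make or move acylcarnitines, 3 were higher in GWI colons, where 13.4% of all tested genes were, and this share was not tested. These were Slc22a5, the carnitine transporter of the cell membrane (log2 fold change 0.80 ± 0.12 SE, edgeR adjusted p = 0.000648), and the carnitine palmitoyltransferases Cpt1a (0.62 ± 0.13, adjusted p = 0.00423) and Cpt2 (0.41 ± 0.13, adjusted p = 0.0305).

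All 4 carriers of iron and glutathione were tested and 1 was higher. Slc25a37, mitoferrin 1, imports iron for heme and iron-sulfur cluster synthesis. It was at 25.3 to 54.0 CPM in Control mice (median 33.2) and 33.9 to 69.1 CPM in GWI mice (median 52.6). Controls 5, 6, 7 and 9 lay within the GWI range, and GWI 5 was the lowest GWI mouse. The log2 fold change was 0.49 ± 0.15 (SE; edgeR adjusted p = 0.0214), all 8 GWI mice were above the Control median, and the call was lost without GWI 7 (0.42, edgeR adjusted p = 0.0520) and with the muscle score as a covariate (0.25, edgeR adjusted p = 0.432). Outside those fits its adjusted p ran from 8.77e-05 upward and stayed under the threshold. Its exons share 6.33% and 1.53% of their length with opposite-strand transcripts. Of 5 tested erythroid markers 0 were called by edgeR, 0 at an unadjusted p under 0.05 and 0 by DESeq2 or limma-voom, and their summed CPM was 14.3 to 66.3 in Control mice and 21.1 to 45.4 in GWI mice. Mitoferrin 2, Slc25a28, had a log2 fold change of 0.07 ± 0.09 (SE) and the glutathione carriers Slc25a39 and Slc25a40 had 0.29 ± 0.13 and 0.24 ± 0.12, and none of them passed (edgeR adjusted p = 0.588, 0.115 and 0.160). Slc25a40 passed without Control 9 (0.34, edgeR adjusted p = 0.0200, with 0.264 the highest over the mice left out in turn), with limma-voom (0.38, adjusted p = 0.000974) and without Control 1, 6, 7 and 9, a set chosen after seeing the data (0.27, edgeR adjusted p = 0.0392). With the muscle score as a covariate the sign of Slc25a40 turned (-0.17, edgeR adjusted p = 0.349, with 0.373 the highest of its alternatives), and Slc25a39 passed (0.63, edgeR adjusted p = 0.0312, with 0.349 the highest of its alternatives). Among 18 genes of heme, iron-sulfur cluster and glutathione metabolism, 4 were higher and 3 lower. Alas1, the first enzyme of heme synthesis, was at 34.6 to 176 CPM in Control mice and 153 to 322 CPM in GWI mice and was higher (log2 fold change 1.36 ± 0.23 SE, edgeR adjusted p = 0.000947), as was Cpox (0.47 ± 0.12, adjusted p = 0.0109), while the cluster scaffold Iscu (-0.31 ± 0.07, adjusted p = 0.00650) and the peroxidase Gpx4 (-0.53 ± 0.13, adjusted p = 0.00931) were lower.

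Carriers of cofactors and pyrimidine nucleotides were all tested, and 1 of 9 was higher. Slc25a51, the carrier that brings NAD+ into mitochondria, was at 83.5 to 105 CPM in Control mice (median 92.2) and 96.5 to 120 CPM in GWI mice (median 112). Apart from GWI 1, the GWI mice were above every control. The difference was small, with a log2 fold change of 0.27 ± 0.07 (SE; edgeR adjusted p = 0.0107), and all 8 GWI mice were above the Control median. With the muscle score as a covariate it was 0.21 and did not pass (edgeR adjusted p = 0.148, the highest of its 13 alternatives, which ran down to 8.98e-05). A microRNA gene on the same strand lies over 2.27% of its exon length. Not called by the edgeR test were the coenzyme A carriers Slc25a16 (log2 fold change -0.26) and Slc25a42 (0.08), the peroxisomal cofactor carrier Slc25a17 (-0.10), the S-adenosylmethionine carrier Slc25a26 (-0.07), the folate and flavin carrier Slc25a32 (-0.15) and the pyrimidine nucleotide carriers Slc25a33 (-0.21) and Slc25a36 (0.12). Limma-voom called Slc25a33 lower (-0.28, adjusted p = 0.0397, with 0.637 the highest of its alternatives) and Slc25a36 higher (0.42, adjusted p = 0.000995, with 0.900 the highest). Slc25a36 also passed in the fit without Control 1, 6, 7 and 9, which was chosen after seeing the data (0.35, edgeR adjusted p = 0.0218). In the fit with the muscle score Slc25a16 (-0.57, edgeR adjusted p = 0.0369) and Slc25a32 (-0.69, edgeR adjusted p = 0.0284) passed as lower. These were the lowest adjusted p-values of their alternatives, which reached 0.478 and 0.865. Of 21 tested genes of folate, S-adenosylmethionine, coenzyme A, NAD and flavin metabolism and mitochondrial nucleic acid synthesis, 5 were higher and 1 lower. The mitochondrial DNA polymerase Polg (log2 fold change 0.32 ± 0.07 SE, edgeR adjusted p = 0.00446), the S-adenosylmethionine synthetase subunit Mat2a (0.74 ± 0.18, adjusted p = 0.00861), the FAD synthase Flad1 (0.32 ± 0.08, adjusted p = 0.00905) and the mitochondrial RNA polymerase Polrmt (0.45 ± 0.12, adjusted p = 0.0150) had the smallest p-values.

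The relatives of the uncoupling proteins, Slc25a14, Slc25a27 and Slc25a30, had log2 fold changes of -0.23, -0.28 and 0.01. Of these 3 members 0 were called by edgeR, 0 had an unadjusted p under 0.05, DESeq2 called 0 and limma-voom called 1, Slc25a14 (-0.30, adjusted p = 0.0122, beside an edgeR adjusted p = 0.171, with 0.685 the highest of its alternatives). Slc25a27 and Slc25a30 were among the scarcest tested members, and Slc25a30 had 17 to 58 counts per mouse. Of the family members with other symbols, Ucp2 was at 227 to 791 CPM in Control mice (median 591) and 545 to 789 CPM in GWI mice (median 699) and did not pass (log2 fold change 0.33 ± 0.18 SE, edgeR adjusted p = 0.181). Mtch2, an outer membrane insertase, was higher (0.33 ± 0.11, edgeR adjusted p = 0.0384) and Mtch1 was not called (-0.09 ± 0.08, edgeR adjusted p = 0.411). Ucp1, the uncoupling protein of brown fat, had at most 10 counts in any mouse, and Ucp3, at up to 1.78 CPM, did not pass the filter.

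Of 8 members at the outer membrane or with a substrate that is not assigned here, 7 were tested and 1 was higher. Slc25a35 was at 24.7 to 52.6 CPM in Control mice (median 43.5) and 43.0 to 70.4 CPM in GWI mice (median 58.4). Of the GWI mice 6 of 8 were above every control, and GWI 5 and GWI 8 were the exceptions. The log2 fold change was 0.43 ± 0.13 (SE; edgeR adjusted p = 0.0257). It was lost without GWI 1 (0.38, edgeR adjusted p = 0.0523) or GWI 3 (0.39, edgeR adjusted p = 0.0561), and in 5 of 13 other alternatives (edgeR adjusted p up to 0.347). This value is uncertain for another reason, since the gene Rangrf on the opposite strand covers 31.3% of its exon length. Its relative Slc25a34 had a log2 fold change of 0.32 ± 0.14 (SE) and an unadjusted p under 0.05 that did not hold after adjustment (edgeR adjusted p = 0.0897). Without Control 1 or Control 9 it passed (0.38 and 0.39, edgeR adjusted p = 0.0401 and 0.0415, with 0.159 the highest over the mice left out in turn). Slc25a34 also passed with limma-voom (0.59, adjusted p = 0.000188), with library size alone (0.33, edgeR adjusted p = 0.0418) and without Control 1, 6, 7 and 9, a set chosen after seeing the data (0.44, edgeR adjusted p = 0.0185). With the muscle score as a covariate its sign turned (-0.12, edgeR adjusted p = 0.586, the highest of its alternatives). Slc25a46, an outer membrane protein of mitochondrial dynamics, was at 66.6 to 180 CPM in Control mice (median 75.7) and 67.0 to 87.6 CPM in GWI mice (median 74.0), and the highest value was that of Control 9. Its log2 fold change of -0.23 ± 0.17 (SE) did not pass the test (edgeR adjusted p = 0.311) and was -0.02 without Control 9 (edgeR adjusted p = 0.879). With the muscle score as a covariate it passed (-0.69, edgeR adjusted p = 0.0159, with 0.879 the highest of its alternatives). Slc25a48 (-0.64 ± 0.36), Slc25a53 (-0.16 ± 0.15), Slc25a45 (0.18 ± 0.19) and Slc25a47 (0.17 ± 0.17) were scarce and were not called. The value of Slc25a48 rests in large part on Control 7, without which it was -0.24 (edgeR adjusted p = 0.507).

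The 7 members below the filter were Slc25a2, Slc25a18, Slc25a21, Slc25a31, Slc25a41, Slc25a43 and Slc25a54, with at most 12 counts in any mouse. They include the testis ADP/ATP carrier Slc25a31 (0 to 2 counts), the second glutamate carrier Slc25a18 (1 to 12 counts) and the second ornithine carrier Slc25a2 (0 to 8 counts), and at such counts only large differences could be seen. Slc25a21, the oxodicarboxylate carrier, had 2 to 10 counts in Control mice and 0 to 2 counts in GWI mice, and 7 of 8 GWI mice were below every control. It is named after its values were seen, and without the filter it was called lower (edgeR adjusted p = 0.0108).

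Carrier proteins reach the inner membrane through import complexes, of which 13 genes were tested. Of these 0 were higher and 5 were lower in GWI colons, beside 13.4% and 13.5% of all tested genes. Their median log2 fold change was -0.26, and whether this list differs from other genes was not tested. The receptor Tomm20 (log2 fold change -0.48 ± 0.14 SE, edgeR adjusted p = 0.0177), the small chaperones Timm10 (-0.47 ± 0.14, adjusted p = 0.0204) and Timm8b (-0.48 ± 0.17, adjusted p = 0.0399) and the receptor Tomm22 (-0.30 ± 0.10, adjusted p = 0.0320) had the smallest p-values. The summed CPM of the list was 483 to 875 in Control mice (median 635) and 515 to 572 in GWI mice (median 541), and 8 of 9 controls were above every GWI mouse, with Control 1 (483 CPM) below them all. Of 16 tested transporters of the inner membrane outside the family, 3 were higher and 4 lower. The calcium uniporter Mcu (0.36 ± 0.09, edgeR adjusted p = 0.0107) was higher, and Micu3 (-0.77 ± 0.20, adjusted p = 0.0110) and Mpv17 (-0.51 ± 0.11, adjusted p = 0.00346) were lower. Of 17 genes of mitochondrial biogenesis and membrane structure, 1 was higher, the fusion protein Opa1 (0.25 ± 0.09, edgeR adjusted p = 0.0437), and 1 was lower, the chaperonin Hspe1 (-0.45 ± 0.14, adjusted p = 0.0231). Over all 10 lists, 37 of 144 tested partner genes were called (25.7%, beside 26.8% of all tested genes), 21 higher and 16 lower. That balance of directions depends on the fit. It was 3 higher and 27 lower with the muscle score as a covariate and 11 higher and 24 lower with upper-quartile factors. With the mouse number as a replicate block it was 14 higher and 6 lower.

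The members lie on 19 chromosomes, 4 of them on X. In 4 places members lie within 50 kb of each other, namely Slc25a29 and Slc25a47 on chromosome 12 (162 bases apart on opposite strands), Slc25a41 and Slc25a23 on chromosome 17 (2056 bases), Slc25a54 and Slc25a24 on chromosome 3 (6461 bases) and Slc25a43 and Slc25a5 on X (18448 bases). In the last 3 pairs the member named first was below the filter. Slc25a29 was called higher and Slc25a47 was not, and whether they differ was not tested.

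Promoter windows of 250 bases before the transcription start (RefSeq, GRCm38.p6) were found for 36 members, 6 of them called. Motifs were searched on both strands. The GC box GGGCGG was in 25 of 36 members (69.6% of member windows, 32.7% of all 32851 windows), the CCAAT box in 18 of 36 (45.7% and 33.8%), the E-box CACGTG in 7 of 36 (17.4% and 6.02%), TGACGTCA in 2 of 36 (4.35% and 1.55%) and TATAAA in 2 of 36 (4.35% and 12.4%). CCAAT was in 5 of the 6 called members with a window and GGGCGG in 3 of 6. A match is a description of the letters and not a binding site. Printed here are windows of Slc25a13 (chr6:6217174-6217423, minus strand), its relative Slc25a12 (chr2:71367756-71368005, minus strand), which was not called, and Slc25a25 (chr2:32451471-32451720, minus strand, 1 of 3 windows of this gene), the called member with the largest positive fold change. All lie upstream of the annotated gene. They run 5′ to 3′ on the gene's strand, with matches to the 5 motifs in capitals (ATTGG and CCGCCC are CCAAT and GGGCGG on the other strand). Slc25a12 has no match in its window, Slc25a13 has 1 CACGTG and 1 CCAAT, and the printed window of Slc25a25 has 3 CCAAT and 1 GGGCGG. Slc25a25 is also the 1 called member with TGACGTCA, which is not in the printed window.
Slc25a13: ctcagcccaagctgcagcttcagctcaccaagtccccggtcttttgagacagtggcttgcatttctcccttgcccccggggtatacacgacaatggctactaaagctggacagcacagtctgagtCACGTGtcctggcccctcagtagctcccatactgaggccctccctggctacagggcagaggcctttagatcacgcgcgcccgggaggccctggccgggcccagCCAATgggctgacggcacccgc
Slc25a12: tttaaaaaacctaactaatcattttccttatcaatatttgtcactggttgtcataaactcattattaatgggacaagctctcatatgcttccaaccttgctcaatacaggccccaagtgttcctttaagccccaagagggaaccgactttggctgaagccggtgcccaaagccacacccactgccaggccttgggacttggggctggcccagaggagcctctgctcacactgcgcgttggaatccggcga
Slc25a25: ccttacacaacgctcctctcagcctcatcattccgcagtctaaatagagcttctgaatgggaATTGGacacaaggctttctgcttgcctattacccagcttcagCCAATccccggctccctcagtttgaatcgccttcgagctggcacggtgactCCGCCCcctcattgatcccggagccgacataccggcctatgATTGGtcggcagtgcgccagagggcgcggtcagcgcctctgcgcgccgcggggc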

How the data were processed

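RNA of 17 colon samples was sequenced as paired ends after poly(A) selection. Each sample was taken as a separate mouse and served as a replicate, which the sample titles do not state. The count columns carry letters and numbers whose meaning the labels do not give, and these were not used. The counts were made by the authors, who trimmed reads with Trimmomatic 0.36, aligned them to GRCm38 with STAR 2.5.2b and used featureCounts for the unique hits of each gene, deposited as raw counts. The annotation release and strand setting are not stated. From these counts, genes were kept with filterByExpr, scaled with TMM factors and tested with the edgeR quasi-likelihood test with robust estimation (edgeR 4.0.16, limma 3.58.1, R 4.3.3), with Benjamini-Hochberg adjustment over all 14146 tested genes and a threshold of 0.05. Tables and figures were made in Python 3.11.15. The pipeline was tested on simulated data.

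Total counts were 16293537 to 20741212 per mouse, and 7 members with at most 12 counts in any mouse were not tested. Levels of different genes were compared per kilobase of union exon length of a GENCODE annotation of GRCm38. The members and lists were chosen with earlier results of these data known. Some genes are not reported here. The other tested members are all named, as are called genes of each partner list among the 4 with the smallest p-values, and any other gene named was chosen after its values were seen.

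Alternatives were other scaling factors, the DESeq2 Wald test (DESeq2 1.42.0), limma-voom with sample weights, other filters, marker scores as covariates, the study's threshold, and each mouse left out in turn. Fits without Control 6 and 7, and without Control 1, 6, 7 and 9, were chosen after seeing the data. So were the ratios of related carriers, which were computed with a pseudocount of 0.5 and not tested.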

Additional observations from a re-analysis of the deposited data

Results flagged for a closer look

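In each group, a member's highest or lowest mouse was set apart when its gap to the nearest other mouse was large against the range of the group (Dixon's rule at 95%). Of 80 groups tested 13 met the rule, where chance gives about 1 in 20. Control 9 was the highest control for Slc25a24 (530.1 CPM, next 368.8), Slc25a32 (33.66, next 20.81), Slc25a40 (40.7, next 29.15), Slc25a46 (180.3, next 88.65) and Slc25a53 (6.064, next 4.052). Control 1 was the highest control for Slc25a22 (41.12 CPM, next 27.68) and Slc25a25 (43.21, next 26.07). Control 7 was the lowest control for Slc25a14 (5.519 CPM, next 7.89) and the highest for Slc25a48 (10.54, next 5.448). GWI 5 was the lowest GWI mouse for Slc25a26 (5.297 CPM, next 7.928) and Slc25a33 (6.117, next 11.04). GWI 3 was the highest GWI mouse for Slc25a48 (2.952 CPM, next 2.378), and GWI 1 was the lowest for Slc25a51 (96.51, next 110.6).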

How the results depend on the processing

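Of the 10 called members, 3 kept an adjusted p under 0.05 in all 30 alternative fits (Slc25a22, Slc25a25 and Slc25a44) and 0 changed sign. The study's threshold, which also limits the fold change, is given apart. Of the 30 uncalled members, 17 changed sign and 12 were called in some fit. Depth limits the 7 members with at most 12 counts in any mouse, the smooth muscle score differs between the groups, so in that fit the group and the score are not separate, and counts from overlapping genes cannot be separated. For the values that follow, the cause was not tested.

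With the muscle minus epithelium score as a covariate, 4 members were higher and 3 lower, 3 partner genes were higher and 27 lower, and 1019 of all genes were higher. Signs turned there for Slc25a12 (0.3053), Slc25a15 (-0.0763), Slc25a23 (0.4982), Slc25a24 (-0.3513), Slc25a27 (0.0498), Slc25a34 (-0.1234), Slc25a36 (-0.3039), Slc25a38 (0.0209), Slc25a40 (-0.172) and Slc25a5 (-0.1832). With upper-quartile factors, 11 partner genes were higher, 1214 of all genes were higher and 2992 lower, and the median log2 fold change of the members was 0.0014. Signs turned there for Slc25a15 (-0.0943), Slc25a28 (-0.0314), Slc25a3 (-0.0661), Slc25a30 (-0.089), Slc25a42 (-0.0128) and Slc25a5 (-0.0061). With limma-voom, 13 members were higher and 5 lower, 42 partner genes were higher and 30 lower, and 3901 of all genes were higher and 4175 lower. Signs turned for Slc25a26 (0.0053), Slc25a3 (-0.0816) and Slc25a32 (0.1662).

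Slc25a15 turned with DESeq2 size factors (-0.0053), the DESeq2 Wald test (-0.0053), library size alone (-0.0106) and at least 10 counts in every mouse (-0.0113), and Slc25a30 with the DESeq2 Wald test (-0.0031), library size alone (-0.0163) and at least 10 counts in every mouse (-0.0071). Without a filter 2 members were lower. With the small intestine score 12 partner genes were higher and Slc25a3 turned (-0.0428). With the study's threshold 0 members were higher, 1 partner gene was higher and 0 lower, and 92 of all genes were higher and 250 lower. The study applied that threshold to p-values of the DESeq2 Wald test, and here it was applied to the edgeR p-value without adjustment. With adjustment and no limit on the fold change, 9 members and 21 partner genes were higher and 16 partner genes lower.

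Without Control 6 and 7, a choice made after seeing the data, 12 partner genes were higher and Slc25a3 (-0.0206) and Slc25a48 (0.0008) turned. Without Control 1, 6, 7 and 9, also chosen after seeing the data, 30 partner genes were lower and Slc25a28 (-0.0023), Slc25a3 (-0.0825) and Slc25a32 (0.0763) turned.

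With each mouse left out in turn, 6 to 11 members were higher and 1 was lower, 13 to 33 partner genes were higher and 10 to 22 lower, and 1472 to 2523 of all genes were higher and 1309 to 2295 lower. Log2 fold changes ran from -0.0384 to 0.0887 for Slc25a15, from -0.102 to 0.0094 for Slc25a26, from -0.0128 to 0.0691 for Slc25a3, from -0.086 to 0.1057 for Slc25a30 and from -0.2175 to 0.0364 for Slc25a32.

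The titles number the mice of both groups, and the number was tried as a replicate block. Of 8 pairs, 1 had a correlation over 0.1 (-0.506 to 0.115) and 0 correlated best with their own number, so the numbers do not pair the mice. With the replicate block 6 members were higher and 1 lower, 14 partner genes were higher and 6 lower, and 1415 of all genes were higher and 826 lower. Slc25a3 (-0.0094), Slc25a30 (-0.0124) and Slc25a32 (0.0467) turned.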
